A study of Mus musculus with 4 samples.

Results

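The genes described here sense foreign or misplaced nucleic acids in the cell or carry out the interferon response that follows, and the set covered 34 genes from the first sensors to antigen presentation. A gene was measured where at least 1 probe set on the array was annotated to its symbol alone, current or older (Rigi is listed as Ddx58), which held for 32 of the 34 genes and 58 probe sets, among 18193 genes measured in all. Isg15 shares its probe set with a second gene and Ifi44 had no probe set in the annotation used, so neither has a value here. RNA came from FACS-isolated basal cells of the epidermis of mouse embryos at day 16 and was hybridised to 4 Affymetrix arrays. Ezh2cKO embryos carry a conditional knockout of Ezh2, the methyltransferase subunit of Polycomb repressive complex 2, and were compared with WT embryos. Each genotype had 2 arrays, numbered 1 and 2, and all mice were of mixed C57 and CD1 background. The driver of the deletion, and whether each sample pooled embryos, are not given in the sources used here. The labels do not tie the arrays to separate animals, so the spread behind each p-value is that of these samples and may be technical.

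Cytosolic DNA is detected by cGAS, which makes a cyclic dinucleotide that activates the adaptor STING, while cytosolic RNA is detected by RIG-I and MDA5, which signal through MAVS. Both routes converge on the kinase TBK1 and on IRF3 and IRF7, which switch on type I interferon genes. Interferon then acts through its receptor on transcription factors that include STAT2 and IRF9 to induce antiviral effectors and antigen presentation genes. Keratinocytes express these sensors and respond to interferons as part of the skin's barrier against infection.

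Signals are linear MAS5 values, and differences are given as log2(signal + 16) in Ezh2cKO minus WT, which understates the change of dim genes. The Ezh2 signal was 661 and 1308 on the Ezh2cKO arrays, against 3336 and 3603 on the WT arrays (log2 -1.88, SE 0.34, limma adjusted p = 0.999979). Keratinocyte markers were bright on all arrays, with summed signals over 7 markers of 75580 to 78166 in Ezh2cKO and 73729 to 84290 in WT. Markers of other cells were present too: 6 dermal fibroblast markers summed to 45792 and 57278 in Ezh2cKO and to 48439 and 53865 in WT, and 6 endothelial markers summed to 3463 and 8934 in Ezh2cKO and to 6986 and 8363 in WT. The endothelial sum was thus lowest in Ezh2cKO replicate 1. The 11 immune and Langerhans cell markers summed to 1816 and 1516 in Ezh2cKO and to 1576 and 1151 in WT, with overlapping ranges. H2-Ab1 alone supplied 797 and 465 of these sums in Ezh2cKO, and 342 and 166 in WT. Of the 11 markers, 5 had a log2 difference above 0 and 6 below. Ptprc, the pan-leukocyte marker, had 41.1 and 33.2 in Ezh2cKO against 41.2 and 13.0 in WT. The 4 melanocyte markers summed to 483 and 474 in Ezh2cKO and to 837 and 478 in WT. No marker of these lists was listed at 0. In such bulk samples fewer cells of a type and less RNA per cell cannot be told apart. A large spread also separated the arrays numbered 1 from those numbered 2, so differences are also shown for same-numbered arrays, which leaves 1 array of each genotype per number.

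Promoter windows help to place the measured genes, since many interferon targets carry a binding site close to their start. RefSeq windows of 300 bases (250 before and 50 after the start, GRCm38.p6) were matched to 27 of the 34 genes. The interferon-stimulated response element, to which IRF9 binds together with STAT2, was searched as GAAANNGAAA, and the gamma-activated site, found at many targets of interferon gamma, as TTCNNNGAA, each on both strands. The first occurred in the windows of 10 of the 27 genes, against 3.99% of 27025 genes with a window, and the second in 8 of the 27, against 9.55%. These shares describe sequence and do not show binding. The 5 windows below belong to the 3 genes higher in both Ezh2cKO arrays (Cgas, Oas1a and Psmb9), to Ifit3 as an interferon effector with the element but no such difference, and to Irf1, which differed most between the array numbers. Capitals mark motif matches, and sequences run 5′ to 3′ on the gene's strand.
Cgas, chr9:78443188-78443487, minus strand: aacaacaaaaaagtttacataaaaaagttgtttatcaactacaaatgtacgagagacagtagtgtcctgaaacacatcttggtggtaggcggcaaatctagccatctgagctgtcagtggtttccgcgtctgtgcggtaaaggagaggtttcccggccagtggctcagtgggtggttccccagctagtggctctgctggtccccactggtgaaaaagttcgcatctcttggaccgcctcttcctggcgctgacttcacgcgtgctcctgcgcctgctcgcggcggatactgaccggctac
Oas1a, chr5:120907476-120907775, minus strand: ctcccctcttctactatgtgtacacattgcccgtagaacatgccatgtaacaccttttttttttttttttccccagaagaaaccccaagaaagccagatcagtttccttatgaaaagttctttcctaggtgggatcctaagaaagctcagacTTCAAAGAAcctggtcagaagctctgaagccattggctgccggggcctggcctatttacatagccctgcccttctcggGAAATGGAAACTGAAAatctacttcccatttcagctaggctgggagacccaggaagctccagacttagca
Psmb9, chr17:34187281-34187580, minus strand: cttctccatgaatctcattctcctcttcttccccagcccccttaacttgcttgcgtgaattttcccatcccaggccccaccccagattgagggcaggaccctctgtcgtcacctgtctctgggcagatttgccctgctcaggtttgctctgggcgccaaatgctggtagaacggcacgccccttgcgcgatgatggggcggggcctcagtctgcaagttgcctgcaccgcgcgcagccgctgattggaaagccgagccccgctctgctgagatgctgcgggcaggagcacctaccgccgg
Ifit3, chr19:34583279-34583578, plus strand: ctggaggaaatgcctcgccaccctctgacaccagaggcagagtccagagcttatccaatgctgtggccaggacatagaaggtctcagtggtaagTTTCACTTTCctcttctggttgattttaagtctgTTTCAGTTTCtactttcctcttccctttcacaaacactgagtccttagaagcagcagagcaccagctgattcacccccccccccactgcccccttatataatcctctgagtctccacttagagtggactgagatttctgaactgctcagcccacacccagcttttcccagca
Irf1, chr11:53769764-53770063, plus strand: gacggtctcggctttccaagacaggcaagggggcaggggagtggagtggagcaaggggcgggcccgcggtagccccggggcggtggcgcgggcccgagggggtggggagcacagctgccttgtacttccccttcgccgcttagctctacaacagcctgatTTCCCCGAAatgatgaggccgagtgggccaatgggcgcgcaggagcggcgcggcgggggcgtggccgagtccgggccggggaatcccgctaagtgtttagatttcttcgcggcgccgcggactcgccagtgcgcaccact
The Cgas and Psmb9 windows held neither motif, and had 16 and 17 CpG dinucleotides, against a median of 7 over all windows. The median over the windows of the set was 11, with 3 for Oas1a and 37 for Tbk1, which overlapped between the genotypes. The Oas1a window held 2 overlapping matches to the response element, starting at bases -20 and -14 relative to the start, and 1 gamma-activated site at -98. The Ifit3 window held 2 response elements, both on the opposite strand. The Irf1 window held 1 gamma-activated site at -90. A second Irf1 window held neither motif.

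As a set, the sensing and interferon genes did not differ in 1 direction between the genotypes, while Cgas had higher signal in both Ezh2cKO arrays by both of its probe sets. Of 32 measured genes, 24 passed the filter on low signal (a mean of at least 73.2) and were tested with limma, and 8 were too dim. None of the 24 passed the adjusted threshold of 0.05 by the brightest probe set, and 0% of all 27022 tested probe sets did. At an unadjusted limma p under 0.05, 2 of their 41 tested probe sets were counted, both of Cgas, while 0.348% of all tested probe sets were higher and 0.0592% lower in Ezh2cKO at that level. This fit has no term for the array number, so its SEs, intervals and p-values include the spread between the numbers. With the array number as a block, 1353 of all tested probe sets had an unadjusted limma p under 0.05. Without the block, 94 were higher and 16 lower at that level. By the brightest probe set, 1 of the 24 had both Ezh2cKO arrays above both WT arrays (Cgas), where 8.52% of 12703 tested genes did, and 2 had both below (Rigi and Mavs), where 8.39% did. With the 8 dim genes included, 3 of 32 were higher and 3 lower, where 9.9% and 9.14% of all 18193 measured genes were. As deposited, the counts of genes were therefore near the background in both directions. The median log2 difference of the 24 genes was 0.02, with -0.08 within number 1 and 0.06 within number 2, beside -0.004 over all tested genes, and it was slightly below 0 after quantile normalization (-0.001) and after scaling to a common median (-0.007). Of the 24, 6 were higher within both numbers and 6 lower within both, beside 25.2% and 25.6% of tested genes, and 12 differed in sign between the numbers. These counts use the brightest probe sets, and the second tested probe sets of B2m, Tbk1, Rigi and Ifi35 differed in sign between the numbers. Under quantile normalization 5 were higher in both Ezh2cKO arrays (Cgas, Irf7, Psmb8, Tap1 and Tbk1) and 3 lower (Mavs, Rigi and Tlr3), beside 8.44% and 9.68% of tested genes. After scaling to a common median 3 were higher (Cgas, Irf7 and Psmb8) and 1 lower (Tlr3), beside 3.35% and 5.25%, so the separation of Rigi and Mavs was lost there while that of Cgas was kept. Under both scalings the share of the 24 that was higher thus lay above the background, by few genes, and that excess was not tested.

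**Figure D1:**
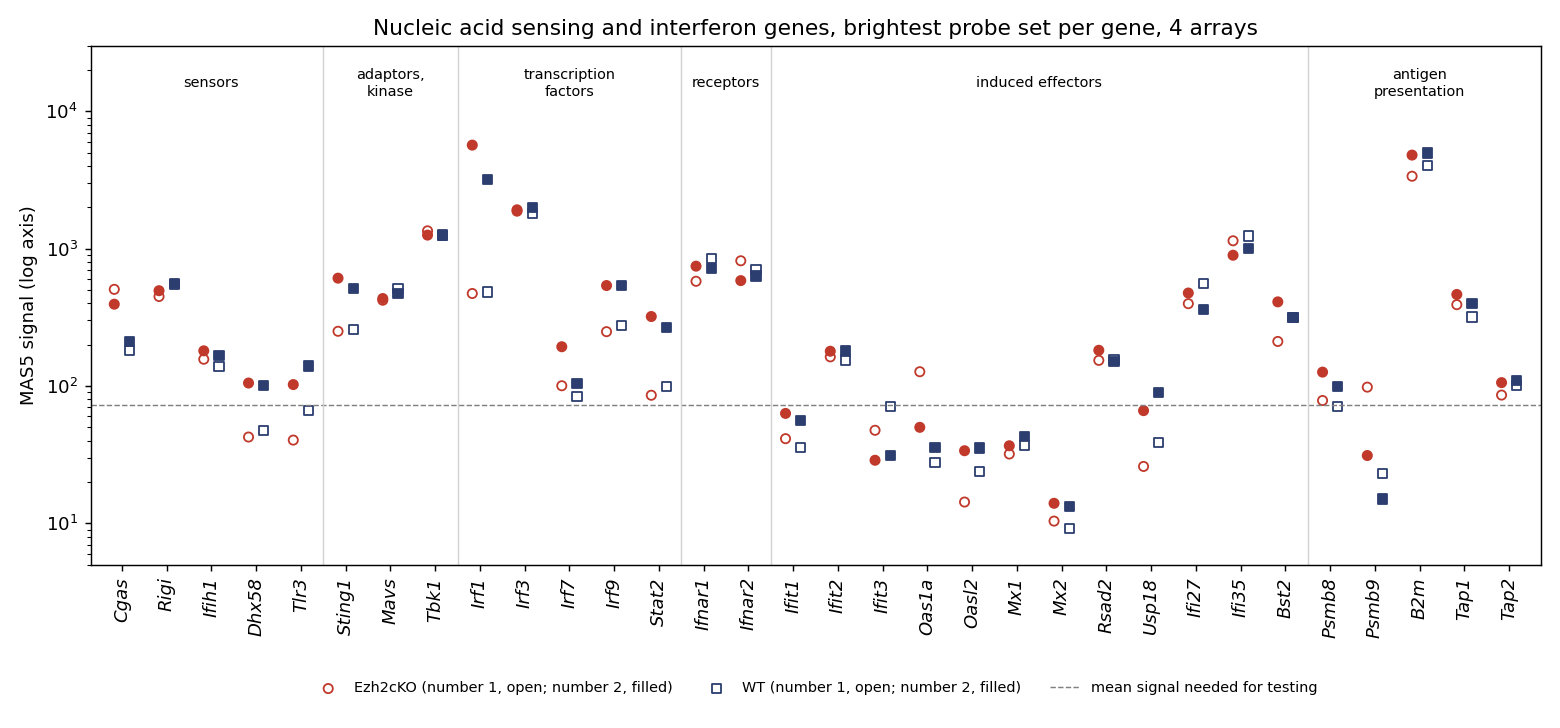
MAS5 signal on a log axis of the brightest probe set of each measured gene, with Ezh2cKO arrays as red circles and WT arrays as blue squares, number 1 open and number 2 filled, and the filter's level of 73.2 as a dashed line. Cgas lies higher in both Ezh2cKO arrays (506 and 394) than in both WT arrays (181 and 211), while most other genes overlap, and Irf1 splits by array number.

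Among the sensors, Cgas, the enzyme that detects cytosolic DNA, had higher signal in Ezh2cKO. Its brightest probe set read 506 and 394 in Ezh2cKO, against 181 and 211 in WT. The groups did not overlap, and each Ezh2cKO array lay above the WT array of the same number. Its second probe set read 301 and 312 in Ezh2cKO, against 103 and 131 in WT, again without overlap. The log2 difference was 1.13 (SE 0.27, 95% confidence interval 0.44 to 1.82) for the first and 1.29 (SE 0.31, 0.51 to 2.06) for the second, with n = 2 arrays per genotype and a limma adjusted p of 0.999979 for each. Within number 1 the folds were 2.65 and 2.67, and within number 2 they were 1.81 and 2.23. Only 14 of the 27022 tested probe sets had a lower limma p than the lower of these, and by the brightest probe set 42 of the 12703 tested genes differed more than Cgas in size, 30 of them higher and 12 lower in Ezh2cKO. Whichever Ezh2cKO array was set against whichever WT array (4 pairings), both Cgas probe sets were at least 1.5-fold higher, as were 0.218% of all tested probe sets. Cgas thus lay among the larger differences on these arrays without passing the adjusted threshold.

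The RNA sensors gave log2 differences between -0.47 and 0.13 by their brightest probe sets. Rigi, which encodes the RIG-I helicase, had 449 and 495 in Ezh2cKO, against 552 and 561 in WT (log2 -0.23, SE 0.21). The arrays did not overlap, but a second tested probe set of Rigi read 29.0 and 181 in Ezh2cKO, against 49.1 and 110 in WT, with no separation and a log2 difference of 0.06. Ifih1, which encodes MDA5, the sensor of long duplex RNA, had 157 and 180 in Ezh2cKO, against 139 and 166 in WT (log2 0.13, SE 0.33). Dhx58, whose product LGP2 modulates the other helicases, had 42.5 and 105 in Ezh2cKO, against 47.7 and 100.3 in WT, and its mean lay just above the filter. Tlr3, the endosomal receptor for duplex RNA, had 40.4 and 102 in Ezh2cKO, against 65.9 and 140.0 in WT (log2 -0.47, SE 0.65). Tlr3 and Dhx58 were dimmer on the arrays numbered 1 than on those numbered 2 in both genotypes, and their genotype ranges overlapped. A dimmer Tlr3 probe set, below the filter, read 25.1 and 55.3 in Ezh2cKO, against 77.2 and 58.3 in WT, both Ezh2cKO arrays below both WT arrays.

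Downstream of the sensors, Sting1 and Tbk1 overlapped between the genotypes and Mavs was lower in both Ezh2cKO arrays. Sting1, the adaptor that receives the cGAS signal, had 250.3 and 610.3 in Ezh2cKO, against 259 and 511 in WT (log2 0.10, SE 0.52). The number of the array, not the genotype, ordered its 4 values. Its second probe set gave a log2 difference of 0.13. Tbk1, the kinase on which both routes converge, had 1350 and 1257 in Ezh2cKO, against 1260 and 1254 in WT (log2 0.05, SE 0.18, 95% confidence interval -0.39 to 0.49). Mavs, the mitochondrial adaptor of the RNA sensors, had 422 and 434 in Ezh2cKO, against 511 and 472 in WT (log2 -0.19, SE 0.22). Both Mavs probe sets were lower in both Ezh2cKO arrays, the second with a log2 difference of -0.30 (SE 0.28), and the limma adjusted p was 0.999979 for each.

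Transcription factors of the pathway overlapped between the genotypes by their brightest probe sets, 5 of 5, as did 10555 of all 12703 tested genes. Irf3, the factor that TBK1 phosphorylates, had 1921 and 1878 in Ezh2cKO, against 1817 and 1989 in WT (log2 -0.001, SE 0.17), and its 4 tested probe sets lay between -0.29 and -0.001. Irf7, which amplifies interferon production, had 100.4 and 193.2 in Ezh2cKO, against 83.7 and 104.4 in WT (log2 0.51, SE 0.47). The ratio of the same-numbered arrays was 1.17 for number 1 and 1.74 for number 2, and Ezh2cKO replicate 1 lay just below WT replicate 2. Leaving out Ezh2cKO replicate 2 brought the log2 difference of Irf7 to 0.09, and leaving out Ezh2cKO replicate 1 brought it to 0.93. Irf9, the DNA-binding subunit of the interferon-activated complex, had 248.8 and 539 in Ezh2cKO, against 277 and 537 in WT. Stat2, its partner, had 85.6 and 321 in Ezh2cKO, against 98.9 and 267 in WT (log2 0.04), and its second probe set read 89.2 and 238 against 45.4 and 159.7 (log2 0.65, SE 0.71). In Irf9 and Stat2 each genotype had its lower value in number 1 and its higher value in number 2.

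Irf1, a factor induced rapidly by interferon gamma and other stimuli, showed the widest spread of the set. It had 472 and 5685 in Ezh2cKO, against 483 and 3214 in WT. The arrays numbered 1 were nearly equal (log2 -0.03) and those numbered 2 differed by log2 0.82, so the pooled log2 difference of 0.39 (SE 1.36) has no firm direction. Without WT replicate 2 the log2 difference was 1.74 and limma's adjusted p 0.0130, the only call among the 24 tested genes in the alternative fits run. Leaving out Ezh2cKO replicate 1 gave 2.17, leaving out Ezh2cKO replicate 2 gave -1.38 and leaving out WT replicate 1 gave -0.95, each of which compares unequal mixes of the array numbers.

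The receptor subunits also overlapped. Ifnar1 had 579 and 746 in Ezh2cKO, against 851 and 719 in WT (log2 -0.24, SE 0.23), and Ezh2cKO replicate 1 was the lowest of the 4. Ifnar2 had 817 and 586 in Ezh2cKO, against 702 and 633 in WT (log2 0.05, SE 0.25), while its other probe sets gave log2 differences of -0.22 and -0.15. By the brightest probe sets, the ratio furthest from 1 within a number was 0.687, for Ifnar1 in number 1.

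Interferon-induced effectors, which report whether the response is running, had no common shift. Of 12 measured, 5 were bright enough to test and none of the 5 was separated between the genotypes. Of all tested genes, 8.52% were separated upwards and 8.39% downwards. Ifit2, which binds viral RNA in complexes with other IFIT proteins, had 163 and 179 in Ezh2cKO, against 154 and 180 in WT (log2 0.03, SE 0.32). Rsad2, which encodes viperin, an enzyme that makes a chain-terminating nucleotide, had 154 and 182 in Ezh2cKO, against 157 and 151 in WT (log2 0.11, SE 0.33). Ifi35 had 1142 and 896 in Ezh2cKO, against 1238 and 1004 in WT (log2 -0.14, SE 0.23), and of its 3 tested probe sets 1 was lower in both Ezh2cKO arrays, by log2 -0.08. These 3 genes differed little between the genotypes. Ifi27 had 398 and 476 in Ezh2cKO, against 562 and 362 in WT, with log2 differences of -0.48 within number 1 and 0.38 within number 2, and its second probe set gave nearly the same values. Bst2, which encodes tetherin, a protein that holds budding virions at the cell surface, had 211 and 410.0 in Ezh2cKO, against 317 and 317 in WT. Bst2, Ifnar1, Ifi27 and the endothelial marker sum were each lower in Ezh2cKO replicate 1 than in WT replicate 1. So were others of the 24 tested genes, such as Tlr3, B2m, Stat2 and Irf9, and their median within number 1 was -0.08. Between WT replicates 1 and 2, Ifi27 fell from 562 to 362 while the endothelial sum rose from 6986 to 8363. The part of endothelial RNA in these values was not tested.

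The 7 dim effectors lay below the filter, where MAS5 values are noisy. Oas1a, an enzyme that activates RNase L in response to duplex RNA, had 127 and 49.99 in Ezh2cKO, against 27.6 and 35.7 in WT. Both Ezh2cKO arrays were above both WT arrays, by 3.28-fold within number 1 and 1.28-fold within number 2 on the log2(signal + 16) scale. Its log2 difference was 1.03, with 0.63 when 64 was added to the signal and 1.32 when 1 was added, and 0.47 without Ezh2cKO replicate 1. The size thus rested mostly on Ezh2cKO replicate 1. Mx1, an antiviral GTPase, had 32.0 and 36.7 in Ezh2cKO, against 37.2 and 42.7 in WT, a log2 difference of -0.15 that was -0.21 when 1 was added to the signal and -0.08 when 64 was added. Leaving out WT replicate 2 gave -0.08, leaving out Ezh2cKO replicate 1 gave -0.09, and leaving out either of the other two arrays gave -0.22. Its relative Mx2 had 10.4 and 14.0 in Ezh2cKO, against 9.16 and 13.3 in WT. Ifit1 had 41.3 and 63.1 in Ezh2cKO, against 35.5 and 55.9 in WT. Ifit3 had 47.6 and 28.8 in Ezh2cKO, against 71.2 and 31.3 in WT. In these IFIT genes the genotypes overlapped. Usp18, which removes ISG15 from proteins and damps receptor signalling, had 25.9 and 66.2 in Ezh2cKO, against 39.0 and 89.6 in WT. Oasl2 had 14.3 and 33.8 in Ezh2cKO, against 23.7 and 35.3 in WT. Apart from Oas1a and Mx1, the ranges of the dim effectors overlapped. Of the 9 genes with the response element in their window and a value, 1 was higher (Oas1a), 1 was lower (Rigi) and 7 overlapped, beside 9.9% and 9.14% of all measured genes separated upwards and downwards.

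**Figure D2:**
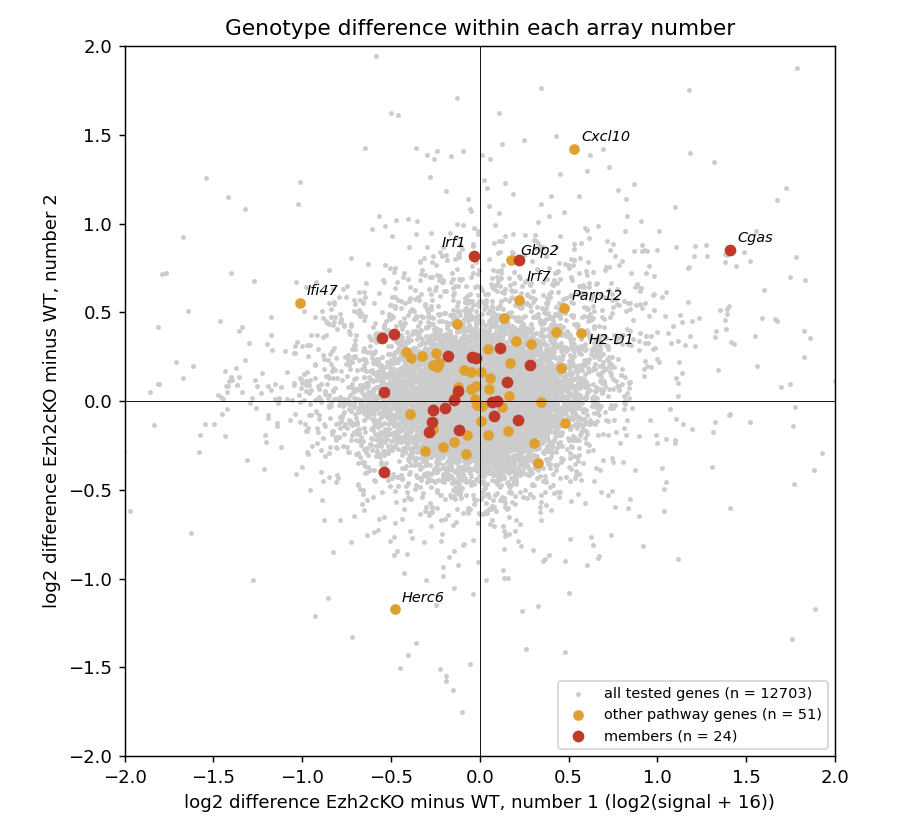
Log2 difference of Ezh2cKO minus WT within number 1 (x axis) against number 2 (y axis) on the log2(signal + 16) scale, for 12703 tested genes in grey, 51 other pathway genes in orange and 24 genes of the described set (members) in red. Cgas lies high on both axes, Irf1 and Irf7 on the y axis, and the rest of the set scatters around 0. Of all genes, 36 fall outside the axes.

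Antigen presentation genes, which interferons induce in most cells, overlapped between the genotypes for 4 of 5, as did 14730 of all 18193 measured genes. B2m, the light chain of MHC class I, had 3373 and 4809 in Ezh2cKO, against 4061 and 4974 in WT (log2 -0.16, SE 0.23). Tap1, a subunit of the peptide transporter, had 391 and 464 in Ezh2cKO, against 318 and 401 in WT (log2 0.24, SE 0.25), higher within both numbers but with overlapping ranges. Tap2, the other subunit, had 85.9 and 106 in Ezh2cKO, against 101 and 109 in WT. Psmb8, an immunoproteasome subunit, had 78.4 and 126 in Ezh2cKO, against 71.4 and 99.6 in WT. Psmb9, its partner subunit, was higher in both Ezh2cKO arrays, with 98.1 and 31.2 in Ezh2cKO, against 23.0 and 15.1 in WT. The groups did not overlap, but the mean lay below the filter and the 2 Ezh2cKO arrays differed widely. The log2 difference was 1.08, with 1.55 within number 1 and 0.60 within number 2, and with 0.58 when 64 was added to the signal, 1.52 when 1 was added and 0.44 without Ezh2cKO replicate 1.

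Psmb9 and Tap1 are transcribed away from each other from the same short stretch of DNA, and their promoter windows share 275 of 300 bases. Their differences were 1.08 and 0.24 on the log2 scale, so the difference was larger for Psmb9 than for Tap1; the difference between the pair was not tested. The neighbours of the 3 genes higher in both Ezh2cKO arrays were then read in gene order, a step chosen after their values were seen. Around Psmb9, the 6 measured protein-coding genes on each side gave 2 of 12 that were also higher in both Ezh2cKO arrays, the same count as around Cgas and around Oas1a, and 9.9% of all measured genes were. These were H2-Ab1, a chain of MHC class II, with 797 and 465 in Ezh2cKO against 342 and 166 in WT, and H2-Oa, a modulator of class II loading, with 51.0 and 89.9 against 13.6 and 22.0, below the filter. Class II genes are markers of Langerhans and other antigen-presenting cells. Of the 11 immune and Langerhans cell markers, 1 was separated upwards in Ezh2cKO (H2-Ab1) and 2 downwards (Tyrobp and Aif1), beside 9.9% and 9.14% of all measured genes. H2-Aa, the class II partner chain, had 60.5 and 67.3 in Ezh2cKO against 61.1 and 77.9 in WT, Cd74 had 314 and 312 against 359 and 264, and Tyrobp had 63.3 and 73.4 against 108 and 84.9. The part of antigen-presenting cells in the Psmb9 value was not tested.

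Around Cgas, the 12 measured protein-coding neighbours lay between log2 -0.29 and 0.56. Of these, 2 were also higher in both Ezh2cKO arrays, Eef1a1 with a log2 difference of 0.08 and the very dim Omt2a with 0.01. The adjacent Mto1 had 893 and 768 in Ezh2cKO, against 833 and 862 in WT. Ddx43, on the other side, gave 0.56 but was dim, with 22.6 and 34.5 in Ezh2cKO against 6.65 and 23.8 in WT. Around Oas1a the 12 neighbours lay between -0.38 and 0.37. The paralog Oas1f had 232 and 212 in Ezh2cKO, against 163 and 191 in WT, the dim paralog Oas1h was higher as well (log2 0.11), and Oas2 and Oas3 overlapped between the genotypes.

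**Figure D3:**
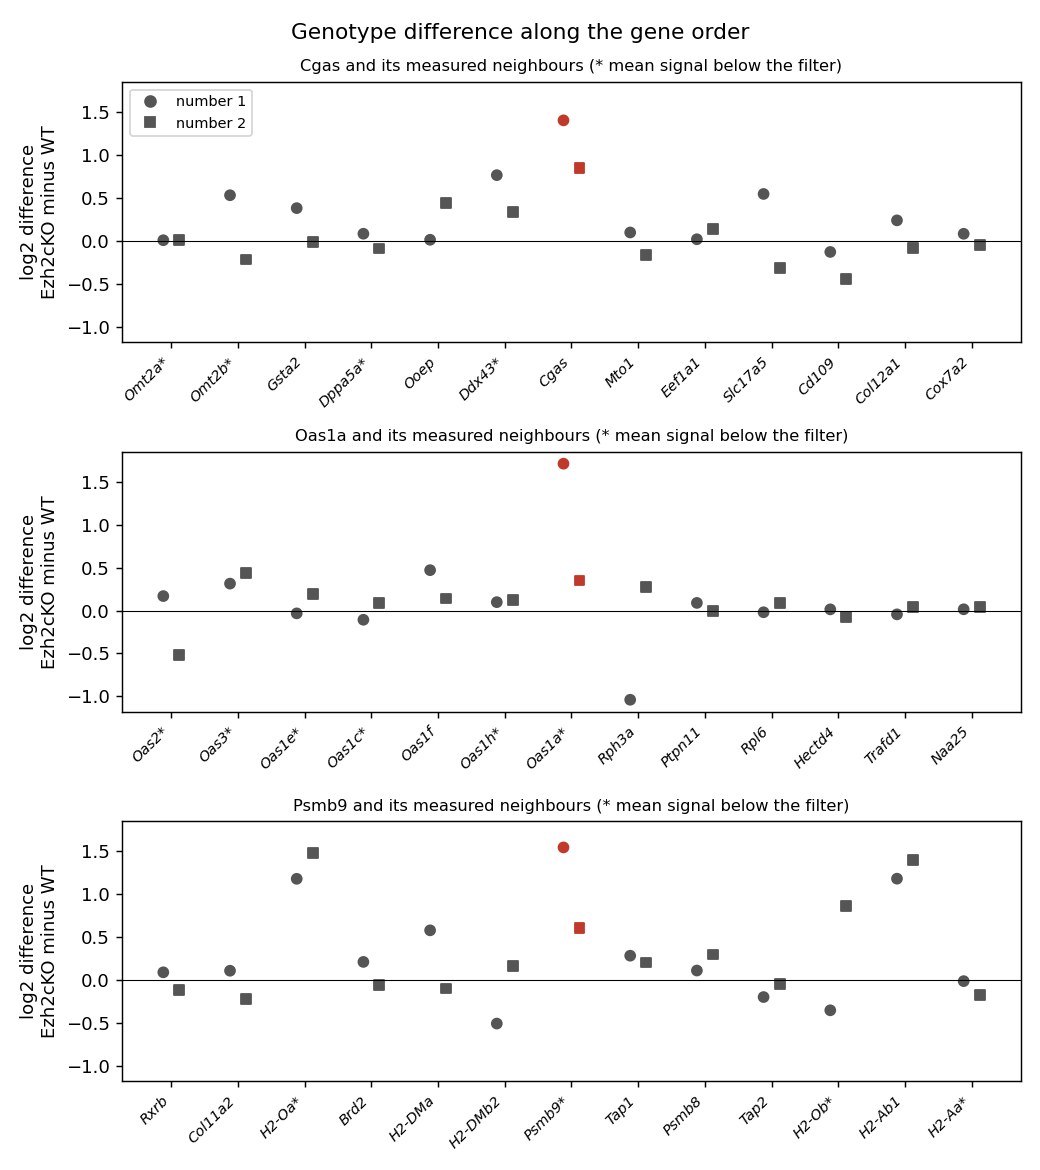
Log2 difference of Ezh2cKO minus WT (y axis) for Cgas, Oas1a and Psmb9 in red and the 6 measured protein-coding genes on each side in dark grey, in gene order, with number 1 as circles, number 2 as squares and an asterisk for a mean signal below the filter. Cgas lies above its neighbours in both numbers and Oas1a in number 1, while H2-Ab1 and H2-Oa are also high near Psmb9.

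Some pathway genes differed more between the array numbers than between the genotypes. Of the 24 tested genes, 2 were at least 2-fold higher in number 2 than in number 1 within both genotypes, Irf1 and Stat2, where 1.9% of tested genes were. Irf1 was 11.7-fold higher in Ezh2cKO and 6.47-fold in WT, and Stat2 was 3.31-fold and 2.46-fold higher. Of 51 other tested pathway genes, 9 passed the same rule. They were Cxcl10, Irgm1, Iigp1, Igtp, Ifi47, Gbp2, Gbp3, Gbp7 and Ifitm1, mostly targets of interferon gamma, and were named after their values were seen. Not every interferon-induced gene was higher in number 2. The ratio of number 2 over number 1 was 0.413 in Ezh2cKO and 0.795 in WT for Psmb9, and 0.704 and 0.542 for Ifit3, both below the filter. Cxcl10, a chemokine that attracts T cells, had 96.0 and 1655 in Ezh2cKO, against 61.5 and 608 in WT. Irgm1, an interferon-inducible GTPase, had 134 and 790 in Ezh2cKO, against 161 and 691 in WT. Scaling bears on these counts, since the median log2 difference of number 2 minus number 1 over all tested genes was -0.79 in Ezh2cKO and -0.59 in WT after scaling to a common median, and -0.05 in Ezh2cKO and -0.03 in WT as deposited. As deposited, 241 tested genes were at least 2-fold higher in number 2 within both genotypes and 50 lower, and the balance turned after scaling to a common median, with 63 higher (0.496%) and 1066 lower. Under quantile normalization it was even, with 137 higher (1.08%) and 138 lower. Irf1, Cxcl10 and Irgm1 were among the higher genes after scaling to a common median, and those 3 with Iigp1 and Ifitm1 under quantile normalization. Of the 51 other pathway genes, 2 were thus higher after scaling to a common median, and 1 was lower. For Cgas the ratio of number 2 over number 1 was 0.786 in Ezh2cKO and 1.15 in WT. What the numbers stand for is not given in the labels, and the excess was not tested.

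**Figure D4:**
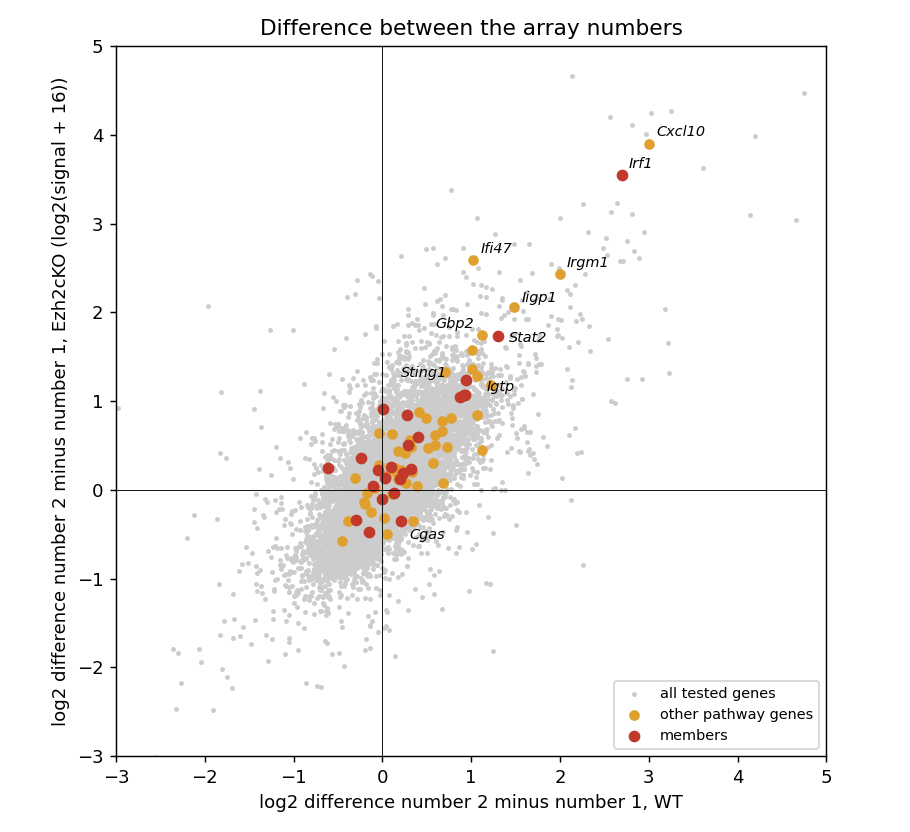
Log2 difference of number 2 minus number 1 in WT (x axis) and Ezh2cKO (y axis) on the log2(signal + 16) scale, for all tested genes in grey, other pathway genes in orange and the described set (members) in red. Irf1, Cxcl10 and Irgm1 are high in number 2 in both genotypes, and Cgas lies near 0. Of all genes, 7 fall outside the axes.

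The wider pathway was read from a list of 70 further genes, 63 with a probe set of their own and 51 bright enough to test. Of the 51, both Ezh2cKO arrays exceeded both WT arrays for 3 genes and lay below them for 5, beside 8.52% and 8.39% of all tested genes, and their median log2 difference was 0.01. No gene of this list passed limma's adjusted threshold. Parp12, an interferon-induced ADP-ribosyltransferase, had 386 and 446 in Ezh2cKO, against 273 and 305 in WT (log2 0.50, SE 0.24). H2-D1, an MHC class I heavy chain, had 2840 and 2999 in Ezh2cKO, against 1908 and 2296 in WT (log2 0.48, SE 0.17), by a probe set of a design that can detect related class I genes, and of its 3 other tested probe sets 1 was separated the same way (log2 0.48) and 2 overlapped (log2 0.66 and -0.07). Ifngr2, a subunit of the interferon gamma receptor, had 933 and 907 in Ezh2cKO, against 809 and 713 in WT, while its second tested probe set overlapped (log2 0.06). Herc6, an E3 ligase for ISG15 in mice, had 60.1 and 43.6 in Ezh2cKO, against 90.1 and 118 in WT (log2 -0.83, SE 0.53), while a dim probe set of the gene went the other way (log2 0.88). Tyk2, a kinase of the interferon receptor, had 409 and 445 in Ezh2cKO, against 475 and 536 in WT. Irf2bp2, a transcriptional corepressor, had 3368 and 4089 in Ezh2cKO, against 4427 and 4299 in WT, and its 3 other tested probe sets overlapped (log2 -0.13 to 0.02). Aim2, an inflammasome sensor of cytosolic DNA, was dim, with 20.2 and 18.5 in Ezh2cKO and 3.13 and 10.3 in WT. Zbp1, a sensor of Z-form nucleic acids, was dim as well, with 18.3 and 23.3 in Ezh2cKO and 31.9 and 50.7 in WT, and its other probe set went the other way with overlap (log2 0.39). Ifnb1, the interferon beta gene, had 49.0 and 103 in Ezh2cKO, against 62.2 and 87.8 in WT, without separation, and is named here after its values were seen.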

How the data were processed

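The authors deposited MAS5 intensities (linear signal) for each probe set. MAS5 is named, without a version, in the submitters' processing notes, and the authors' scaling was kept (with 2% cut from each end, every array averaged 500.0). Detection calls were not used here. Arrays were grouped by their titles. Adding 16 to the signal before log2, other pseudocounts, filters and scalings, the array number as a block and leaving out each array were the choices varied. Of 45101 probe sets, 64 controls were left out. Probe sets were named through the platform annotation, with symbols updated by gene identifier (34945 had 1 symbol, 932 several, 9160 none; 34741 matched RefSeq GRCm38.p6). The upper 60% by mean signal were kept. Genes were represented by their brightest kept probe set. Differences were fitted without a block by lmFit and trended eBayes (limma 3.58.1, R 4.3.3), comparing Ezh2cKO with WT on log2(signal + 16) over all kept probe sets, with Benjamini-Hochberg adjustment. The fit was run on simulated data with less spread than these arrays and no difference between array numbers. That run checks the code and does not show what the fit can detect here. All genes of the set are described, with genes of the wider list named if separated between genotypes (at most 8 by size). The genes of the set, the lists, the tests and the alternatives were chosen with earlier results of these data known. The number of arrays limits the precision.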

Additional observations from a re-analysis of the deposited data

How the results depend on the processing

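Alternatives were other pseudocounts, filters, scalings, the replicate block, no intensity trend, an adjusted threshold of 0.1, averaging over probe sets of a gene, and fits on 3 arrays. The count of called probe sets was 0 in all fits that kept 4 arrays except with the replicate block, which called 6, and 0 to 52 with 1 array left out (52 without WT replicate 2, 27 without Ezh2cKO replicate 2, 2 without WT replicate 1). No gene of the set was called except Irf1 without WT replicate 2, a range of 0 to 1 with 1 array left out, where the lone array of a genotype is assumed to vary like the others. Under the replicate block the Cgas adjusted p was 0.219, and the block changed no call of the set. Same-numbered arrays deviated together (correlation 0.766 over kept probe sets), but with 2 pairs they share only a number. The count of genes higher in both Ezh2cKO arrays, 1 of 24, was 3 of 32 without the filter, 5 under quantile normalization and 3 under scaling to a common median. The count lower, 2 of 24, was 3 of 32 without the filter, 3 under quantile normalization and 1 under scaling to a common median. Counted as a shared sign within both numbers (the replicate block), 6 were higher and 6 lower, beside 25.2% and 25.6% of tested genes. With 1 array left out, 3 to 12 were higher (12 without Ezh2cKO replicate 1, beside 29.6% of tested genes). Lower were 4 to 12 (12 without Ezh2cKO replicate 2, beside 30.9% of tested genes). Fits on 3 arrays separate genes more easily, and they compare unequal mixes of the array numbers. Their median log2 difference was -0.19 to 0.16. The log2 difference of Irf1 ranged between -1.38 and 2.17 with 1 array left out. It turned negative without WT replicate 1 (-0.95) or Ezh2cKO replicate 2 (-1.38). Irf1 was 11.7-fold higher in number 2 than in number 1 in Ezh2cKO and 6.47-fold in WT, so the mix of numbers moves its value. The cause of the difference between the numbers was not tested. The log2 difference of Cgas stayed between 0.96 and 1.30 with 1 array left out. Alternatives added after the data were seen gave 1 gene at least 2-fold higher in number 2 under quantile normalization and 1 under scaling to a common median.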
